A study of Danio rerio with 4 samples.

Results

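The genes described are those of voltage-gated ion channels and their close relatives in whole zebrafish larvae at 4 dpf. They were taken by symbol, as every gene whose name starts with kcn and a letter, with scn and a digit, or with cacna, cacnb or cacng. The rule took 132 of the 19143 genes in the authors' deposited table, of which 83 were potassium, 10 sodium and 39 calcium channel genes. The name of the set is wider than its gating. Only 59 of the 132 genes encode pore-forming subunits of channels gated by voltage, and the other 73 encode accessory subunits or channels opened by other means, such as the inward rectifiers.

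RNA-seq had been carried out on 4 pools of larvae. The 2 mutant pools were *nlrc3l* st73 homozygotes picked as larvae without microglia by staining with neutral red, which labels these cells. The 2 sibling pools mixed heterozygous and wild-type larvae sorted for normal microglia. The paper's staining method immersed live larvae in water with neutral red and PTU, which inhibits pigmentation. No other treatment of the larvae was named. In each genotype 1 pool held 10 larvae and the other 12. *nlrc3l* encodes a NOD-like receptor, and it had a mean normalized count of 42.8 over all libraries. The value used for each gene is that mean, which the authors computed over mutant and sibling libraries together. The other value columns hold the authors' own comparison of the genotypes and were not used, and values per pool were not analysed here, so no difference between mutants and siblings is given for any channel and no value carries a replicate error. Each value counts read pairs and was not divided by transcript length. Long transcripts give more reads, so the counts show how deeply a gene was read and not how many transcripts of it were present relative to another gene.

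Voltage-gated channels open a pore across the cell membrane when its voltage changes. Sodium channels start the action potential, potassium channels end it and set the resting state, and calcium channels turn it into contraction, transmitter release or gene regulation. Each is built from a pore-forming subunit, named alpha in sodium channels and alpha1 in calcium channels, with accessory subunits that set its trafficking and kinetics. In skeletal muscle the L-type calcium channel acts as the voltage sensor that opens the ryanodine receptor of the inner calcium store. Many of these genes stand as a and b copies in zebrafish, from the genome duplication of teleost fish.

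Channel genes drew few reads. Together the 132 genes held 10392 of 8721330 mean normalized counts, or 0.119% of the table. Their median was 40.7, against 126 for all genes, and 26 of the 132 lay above the median of all genes (19.7%, 95% Wilson interval 13.8 to 27.3, over genes). The lowest channel gene was *kcnmb2* at 9.35, just above the lowest value of the whole table, 9.18. Between that limit and a count of 20 stood 32 channel genes (24.2%), against 10.1% of all genes, so many members were read close to the limit at which the table starts. The 10 genes with the most reads held 33.8% of the channel counts. By class, the potassium channel genes had a median of 31.5 with 10 of 83 above the median of all genes. The calcium channel genes had a median of 69.7 with 12 of 39 above it, and the 10 sodium channel genes a median of 121 with 4 above it. Counts were not divided by transcript length, so the order of these medians was not read as an order of expression. Among the sodium channel genes the 5 alpha subunits had a median of 120 and the 5 beta subunits 123.

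**Figure D1:**
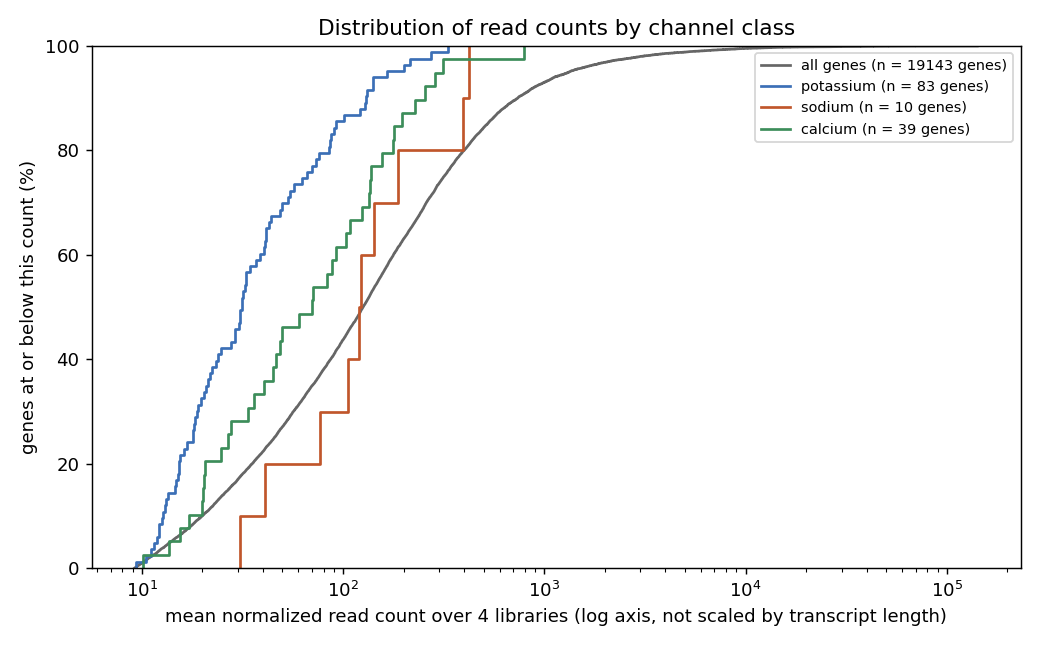
Share of genes at or below each mean normalized read count (log axis, not scaled by transcript length) for all 19143 genes and for the 83 potassium, 10 sodium and 39 calcium channel genes. The potassium channel curve lies left of that of all genes, with medians of 31.5 and 126.

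The skeletal muscle forms were read at moderate depth. *cacna1sa* and *cacna1sb*, which encode the alpha1 subunit of the muscle L-type channel, had mean normalized counts of 71.2 and 156. *cacnb1*, the beta subunit that brings this channel to the junction with the inner store, had 108. *cacng1a*, the gamma subunit first found in the muscle channel, had 197, and its sister gene *cacng1b* was not analysed here. *scn4ab*, the sodium channel that carries the muscle action potential, had 188, and its sister gene *scn4aa* was not analysed here. These 5 genes held 720 counts, or 6.93% of those of all channel genes, and 3 of the 5 lay above the median of all genes. *cacng6a* and *cacng6b*, whose mammalian counterpart is also a muscle gamma subunit, were outside the muscle forms as defined and had 136 and 26.7.

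Genes of the same muscle machinery were all read. The list of muscle partners held 9 genes, and all 9 were matched, with counts from 63.6 to 1027. The ryanodine receptor genes *ryr1a* and *ryr1b*, which encode the calcium release channel, had 184 and 215. *stac3*, an adaptor needed for coupling of the voltage sensor to release, had 247. The junctophilin genes *jph1a*, *jph1b* and *jph2*, which hold the membranes together, had 63.6, 520 and 1027. The calcium store buffers *casq1a* and *casq1b* had 839 and 473, and *trdn*, which encodes the junction protein triadin, had 103. The larvae also gave deep reads for muscle structure, with counts from 3248 to 98792 for the 5 muscle markers, of which *actc1b* was the highest. All 5 neuron markers were matched too, from *stmn2b* at 1291 to *sypa* at 3383. The 3 photoreceptor markers ran from *opn1mw1* at 5034 to *rho* at 7095. Of the heart markers 3 of 4 were matched, from *nppa* at 197 to *myl7* at 260. Of the microglia markers 2 of 3 were matched, *csf1ra* at 41.4 and *apoeb*, which other cells of a larva also express, at 7244. Neither count can be assigned to microglia, because each is a mean over whole larvae that includes the mutant pools sorted as lacking these cells. In a whole larva, fewer cells of a type and less RNA per cell cannot be told apart.

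The remaining sodium channel genes lie outside the muscle forms, and their counts in whole larvae were not assigned to a tissue. *scn8aa* and *scn8ab* encode alpha subunits of the kind found where axons start to fire, and they had counts of 394 and 106. *scn1lab*, an alpha subunit whose loss gives seizures in zebrafish, had 120, and its sister *scn1laa* was not analysed here. *scn12aa*, the lowest of the alpha subunits, had 41.0. Beta subunits anchor the channel and shape its kinetics. Of these *scn1bb* and *scn1ba* had 424 and 142, *scn3b* had 123, *scn2b* had 77.2 and *scn4ba* had 30.9. The alpha and the beta subunits thus held similar parts of the channel counts, 8.17% and 7.67%. These shares were not scaled by transcript length, so they do not compare the levels of alpha and beta transcripts. Among partners of neuronal channels 8 of 10 listed genes were matched. *ank3a* and *ank3b*, for the ankyrin that clusters sodium channels on axons, had 613 and 59.5. The channel-binding FGF genes *fgf13a*, *fgf13b* and *fgf14* had 338, 326 and 54.4, *dpp6a* and *dpp6b*, for a partner of Kv4 channels, had 75.9 and 244, and the sodium leak channel gene *nalcn* had 254.

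Among calcium channel genes the pore-forming subunits were not where most reads lay. The 15 alpha1 genes held 9.80% of all channel counts. The 9 genes among *cacng2*, *cacng3*, *cacng4*, *cacng5*, *cacng7* and *cacng8* forms held 13.2%. These gamma subunits are known in mammals chiefly as partners of AMPA-type glutamate receptors rather than of calcium channels. They ran from *cacng4b* at 10.2 to *cacng3b* at 314, with *cacng8b* at 286, *cacng2b* at 255, *cacng2a* at 229 and *cacng8a* at 177, and 5 of the 9 lay above the median of all genes. The single most deeply read channel gene was *cacnb4b*, a beta subunit whose mammalian form is mainly neuronal, at 789. The other beta subunits were *cacnb2a* at 87.9, *cacnb2b* at 48.5 and *cacnb3b* at 13.6, beside *cacnb1*.

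The alpha1 genes spanned 15.4 to 179. *cacna1aa* and *cacna1ab*, which encode P/Q-type channels that trigger transmitter release, had 179 and 36.1. The N-type genes *cacna1ba* and *cacna1bb* had 46.3 and 33.7, and the R-type genes *cacna1ea* and *cacna1eb* had 40.6 and 15.4. Among L-type genes, *cacna1c*, the heart form, had 44.9, and *cacna1da*, the form of zebrafish hair cells, had 60.4. *cacna1fa* and *cacna1fb*, whose mammalian counterpart serves photoreceptor synapses, had 17.2 and 123. The T-type genes *cacna1g* and *cacna1ha*, which open near rest, had 104 and 69.7. The alpha2delta subunits, which bring channels to the membrane, ran from 20.2 to 138. In this subfamily *cacna2d3* was the highest at 138. The lowest, at 20.2, was a second identifier that carries the name *cacna2d3* in newer annotation. *cacna2d4a* also stood on 2 identifiers, at 24.6 and 20.6. In both cases reads could have been split between the identifiers.

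Potassium channel genes were the most numerous and were read most thinly. Of the 39 pore-forming genes gated by voltage, 5 lay above the median of all genes. Among them the Kv3 genes, which let neurons fire fast, ranged widest, from *kcnc3b* at 11.5 to *kcnc1a* at 333, with *kcnc2* at 142. Of the Kv4 genes, which carry transient current in dendrites and heart, *kcnd2* had 141, *kcnd3* had 73.4 and *kcnd1* had 57.3. *kcnip1b*, for a KChIP protein that binds Kv4 channels, had 273, and *kcnip4*, the lowest of the 4 KChIP genes, had 12.7. The only Kv2 gene matched by symbol, *kcnb2*, had 130. The large-conductance channel gene *kcnma1a*, opened by voltage and calcium together and counted among the 39, had 165, and its accessory subunit gene *kcnmb2* had 9.35. Another row, outside the rule by its placeholder name, now also carries the name *kcnmb2* and had 11.6. Whether reads were split between these rows was not tested.

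The other voltage-gated subfamilies all lay under the median of all genes. The 5 Kv1 genes ran from *kcna2b* at 12.1 to *kcna1a* at 36.9. The 6 Kv7 genes, of the M current and its relatives, ran from *kcnq5a* at 12.1 to *kcnq5b* at 33.0. The 10 silent subunits, which form channels only together with Kv2 subunits, ran from *kcng4b* at 10.5 to *kcnf1a* at 40.4. Of the 7 EAG, ERG and ELK genes, *kcnh2a* was the lowest at 13.1 and *kcnh6a*, which repolarizes the zebrafish heart, the highest at 87.4. A row with a clone-based name, not among the 7, is now named *kcnh2* and had 16.3.

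Of the potassium channels with other gates, the calcium-activated SK and IK genes ran from *kcnn4* at 15.3 to *kcnn1a* at 216. The inward rectifiers, which hold the resting potential, were the largest subfamily with 19 genes and 11.6% of channel counts, from *kcnj1b* at 14.7 to 200 for 1 of the rows named *kcnj11l*, whose identifier carries the name of another gene in newer annotation. The 9 genes of 2-pore domain channels, which carry leak current, ran from *kcnk18* at 15.5 to *kcnk6* at 101, and none lay above the median of all genes.

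**Figure D2:**
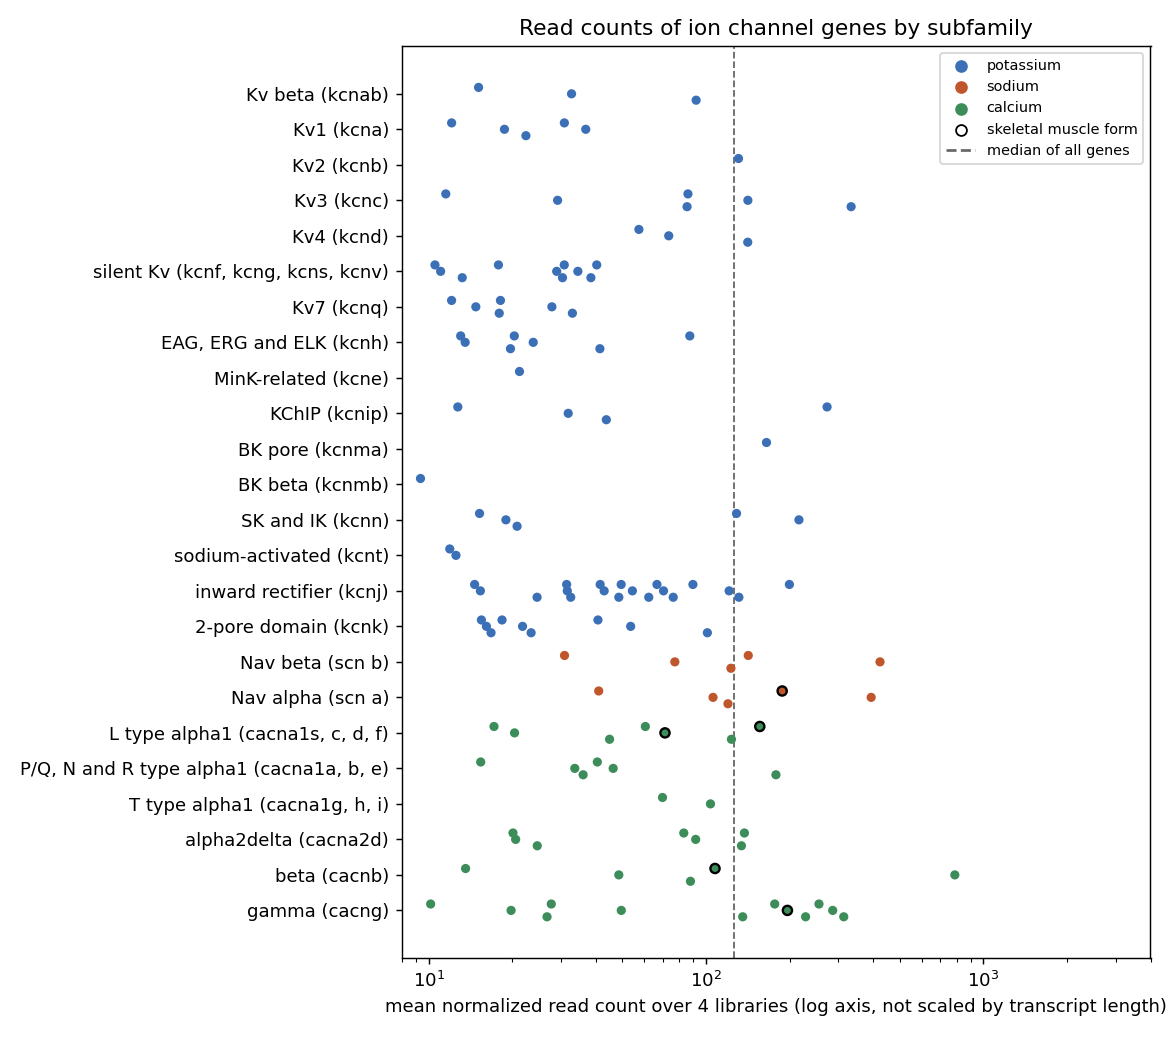
Mean normalized read count over the 4 libraries (log axis, not scaled by transcript length) of each of the 132 channel genes, 1 point per gene, by subfamily; black rings mark the 5 skeletal muscle forms and the dashed line the median of all genes, 126. *cacnb4b* at 789 stands farthest to the right, and every Kv1, Kv7, silent Kv, kcnh and 2-pore domain gene lies left of the line.

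How much of each family was covered was asked from a table that pairs identifiers with newer symbols. It lists 193 identifiers under a symbol the rule takes, of which 138 were matched to a row (71.5%) and 55 were not analysed here. Over all 29201 identifiers listed there the share was 63.4%. All 6 Kv3 genes, all 3 Kv4 genes, all 5 SK and IK genes and all 6 genes of P/Q, N and R-type alpha1 subunits were matched. Coverage was lowest in families with 3 or more genes for Kv2, with 1 of 3, the T-type alpha1 subunits, with 2 of 5, and the 2-pore domain channels, with 9 of 21. For sodium channels it was 10 of 14 and for potassium channels 90 of 129. Why single genes were not matched was not tested.

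**Figure D3:**
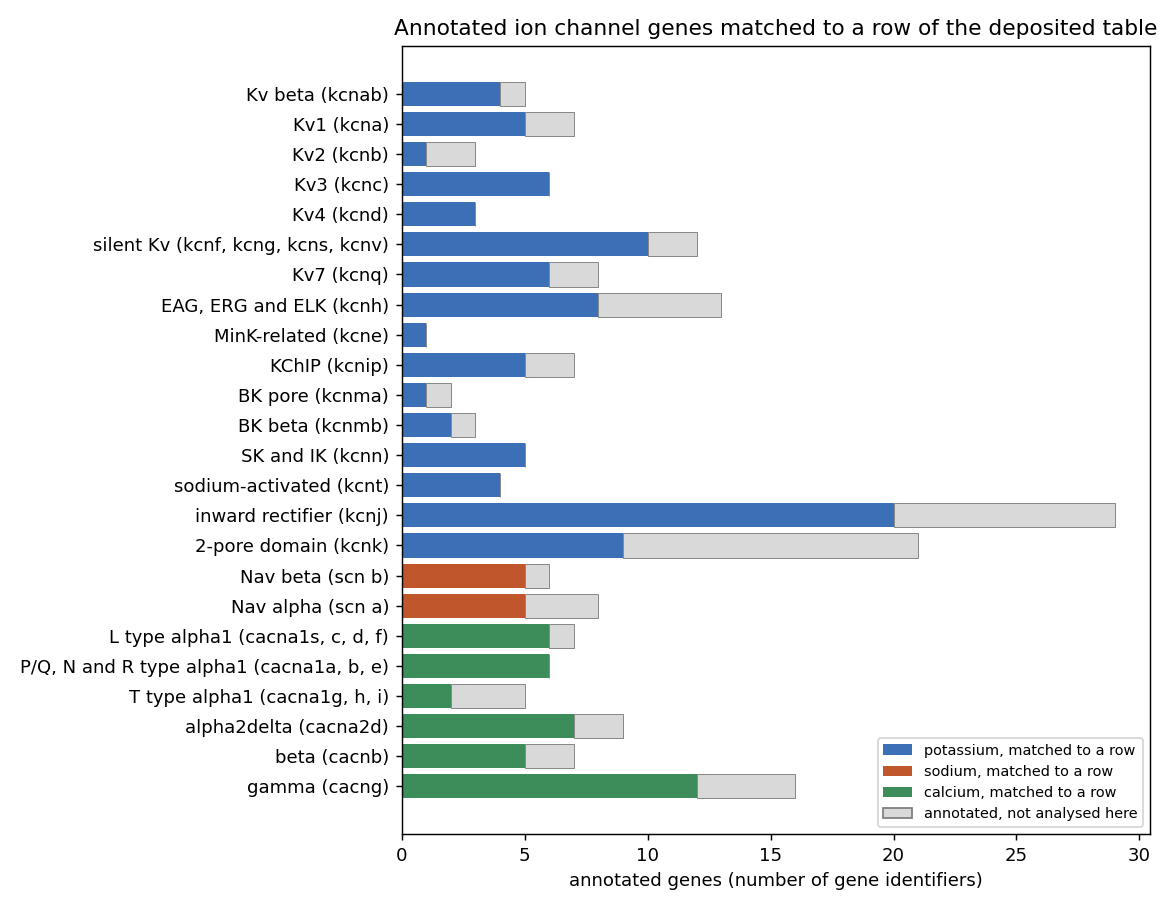
Number of annotated gene identifiers in each channel subfamily, split into those matched to a row of the deposited table (coloured) and those not analysed here (grey). The 2-pore domain genes have the longest grey part, 12 of 21.

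Some duplicated genes were read in both copies and others in only 1. RefSeq's GRCz12tu annotation names 62 a and b pairs under the rule. Both copies were matched by symbol in 27 pairs, 1 copy in 23 and neither in 7, and in 5 pairs the table holds the name with no letter. These counts took the deposited symbols as given. *cacna1da* and *cacna1db* thus counted as both matched, although the row named *cacna1db* carries another gene's name in newer annotation. Rows with clone-based names were not counted, among them 1 now named *kcnj10* and 1 now named *kcnh2*. In the pair *cacng2a* and *cacng2b* the counts were 229 and 255, and in *kcnh4a* and *kcnh4b* 20.4 and 19.7. Elsewhere they lay apart, as in *kcnn1a* and *kcnn1b* at 216 and 20.8, *kcnc3a* and *kcnc3b* at 86.1 and 11.5, and *cacna1fb* and *cacna1fa* at 123 and 17.2. Whether transcript length or sequence shared between copies adds to these gaps was not tested.

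Some channel genes are neighbours. In GRCz12tu 28 of 192 channel genes stood in 10 runs with no other protein-coding gene between them. The longest run holds 7 genes, *kcnj1a.6* to *kcnj1a.1* and then *kcnj5*. The 6 *kcnj1a* genes, which encode relatives of the mammalian kidney channel ROMK, had counts from 15.4 to 54.3 and summed to 234, and as close copies they may share reads. The gamma subunit genes stood in 4 of the runs. One holds *cacng5a*, the muscle form *cacng1a* and *cacng4a*, and another *cacng1b* and *cacng4b*, and of these 5 genes *cacng5a*, *cacng1a* and *cacng4b* were matched, at 27.7, 197 and 10.2. The others are *cacng6a*, *cacng8a* and *cacng7a*, and *cacng6b*, *cacng8b* and *cacng7b*. In both of the latter the *cacng8* gene, at 177 and 286, had the largest count and the *cacng7* gene, at 19.8 and 49.5, a smaller one, while *cacng6a* and *cacng6b* differed, at 136 and 26.7.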

How the data were processed

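Larvae were pooled by genotype, 2 pools of mutants and 2 of siblings, and libraries were made with a stranded poly(A) kit. Trimmomatic and HISAT2 were the trimmer and aligner that the authors name, and they also, per the submitters' processing notes, used featureCounts of Subread 1.5.2, DESeq2 and R 3.3.1 with GRCz10. The deposited value used is a signal, the authors' mean over all 4 libraries of counts divided by size factors. The remaining deposited columns hold the authors' fold changes, standard errors, statistics and p-values between genotypes. These columns, and a second table of genes chosen by them, were not used. Depth per library is unknown, and with no values per library no test was made.

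Members and lists were chosen with earlier results of these data known. Coding lengths were not used here, so the planned levels per coding length were replaced by unscaled counts, and the planned ratios of a and b copies were not computed. The genes to name were the muscle forms, the listed partners and the highest and lowest of a subfamily of 4 or more. Of the marker lists at most the highest and lowest genes are named. Other names were chosen after their values were seen. Of the 19143 identifiers 18512 were matched to a table of newer symbols. Neighbours and copies came from RefSeq's GRCz12tu by symbol, with no coordinates taken. Wilson intervals at 95% describe genes, not libraries, save that of the muscle share, which took normalized counts as its units. The symbol rule, the placing of genes in classes and the count of genes above a median were tested on simulated data. The other steps were not. The alternatives were pore-forming subunits gated by voltage only, a minimum count of 50, leaving out symbols on several rows, and newer symbols, the last chosen after seeing the data. The software was pandas 2.3.3, scipy 1.17.1, numpy 2.4.6 and matplotlib 3.10.9 under Python 3.11.15. One listed gene is not reported here.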

Additional observations from a re-analysis of the deposited data

How the results depend on the processing

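With pore-forming subunits gated by voltage only, the set had 59 genes against 132. The muscle list then lost *cacnb1* and *cacng1a*, and its other 3 genes held 10.8% of the counts of the 59, against 6.93% for the 5 muscle forms among 132. The median of calcium channel genes fell from 69.7 to 46.3. With a minimum count of 50 there were 54 genes, a muscle share of 8.57%, and medians of 92.1 for potassium and 136 for calcium channel genes against 31.5 and 69.7, a shift that the removal of low genes produces by construction. The calcium median of 46.3 for pore-forming subunits was among the other 18 values recomputed. These 18 lay within 1.5 times the reported count of genes or within the 95% interval of the reported value. For medians this was the interval between order statistics of the genes, which for the calcium median ran from 36.1 to 123. For the muscle share it was a Wilson interval, 6.46 to 7.43, that took normalized counts as independent units. It therefore describes a spread over neither genes nor libraries. No paired analysis was possible because the value used is a mean over all libraries. For the same reason no pool could be left out, and no test against another normalization was run. Levels per coding length and ratios of a and b copies were not computed.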

Other observations

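For 10 rows, whether the rule takes a gene depends on which annotation gives its symbol. For 130 rows the rule takes both the symbol in the table and the newer symbol of the same identifier, although the spelling often differs, as in *cacna1sa* and *cacna1s*. The row named *kcnj11l* with a count of 200 (ENSDARG00000089255) carries the newer symbol *cd59b*, and the row named *cacna1db* with a count of 20.4 (ENSDARG00000075917) carries *cfap74*. Neither value can therefore be read as that of a channel gene with certainty. The second row named *kcnj11l* keeps its name and had 121. Another 8 rows had clone-based or placeholder names in the table and newer names of channel genes. The highest of these were *kcnip4b* at 41.6 and 1 of the genes now called *kcnt1* at 34.5, which is above the 12.6 of the row named *kcnt1* in the table. With newer symbols the set had 138 genes, and the share above the median of all genes was 18.1%, against 19.7%.

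Voltage-gated families outside the rule were also read. The pacemaker channel genes *hcn2b* and *hcn3* had mean normalized counts of 146 and 10.5, and the proton channel gene *hvcn1*, known in mammals from phagocytes, had 133.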
